A study of Rattus norvegicus with 6 samples.

Results

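The genes described here are the chemokines and chemokine receptors of cultured rat hepatocytes. They were chosen by symbol: every gene named Ccl, Cxcl, Cx3cl, Xcl, Ccr, Cxcr, Cx3cr, Xcr or Ackr followed by a number. 52 of the 15037 named genes on the array met this rule, and 33 of them encode ligands and 19 encode receptors. Each of the 52 had 1 probe set. RNA was measured in primary hepatocytes, the parenchymal cells of the liver, isolated from male Sprague-Dawley rats aged 8 weeks and plated on collagen in serum-containing William's E medium. 3 samples received trimethylamine N-oxide (TMAO) at 50 µM over 30 h and 3 were left untreated (Control). This compound is made in the liver from trimethylamine that gut microbes release from dietary choline. How many animals each sample holds is not given in the sources used here, and the cells are a culture of freshly isolated liver cells, not a cell line.

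Chemokines are small secreted proteins that steer leukocytes along concentration gradients, and their receptors are G protein-coupled receptors on the responding cells. They are grouped by the spacing of their first cysteines into CC, CXC, CX3C and XC ligands, and atypical receptors bind ligands without G protein signalling and remove them. In liver, injured or cytokine-exposed hepatocytes, Kupffer cells (the resident macrophages), endothelial cells and stellate cells all release chemokines, while most receptors are carried by leukocytes.

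All values below are log2 signals as the authors deposited them, differences are TMAO minus Control on that scale, and errors of differences are standard errors (SE) of a limma fit to all genes. The labels call the 3 samples of a group biological repeats. Nothing says that they came from separate animals, so p-values reflect only how far these arrays varied. The 6 arrays had median signals of 5.53 to 5.61. 13 of the 14 measured hepatocyte markers were above the limit described next, with albumin (Alb) at a mean of 11.91 and transthyretin (Ttr) at 11.72. Cyp2e1, a cytochrome P450 of mature hepatocytes, averaged 4.82 and was below it.

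Chemokine ligands were measured above background far more often than receptors. Background was taken from the array's 1153 negative-control probe sets, whose median was 3.95. A gene was counted as above the limit when its mean over all 6 arrays was at least 1 log2 unit above that median, at 4.95, and 27.9% of the negative controls themselves reach this limit. 23 of the 33 ligands and 5 of the 19 receptors were above it, 28 of 52 in all, against 66.2% of all genes. The other 24 are called near the negative controls. A stricter line, the 95th percentile of the negative controls at 7.26, was passed by 5 ligands and no receptor, against 28.5% of all genes. Those 5 were Ccl9, Ccl2, Cxcl16, Cxcl1 and Cxcl2. At the lower limit, Ccl27, Ccl5 and Ccl21 lay just inside with means of 5.11, 4.99 and 4.96, and Cxcl12, Ccl24 and Ccl25 lay just outside with 4.94, 4.89 and 4.66. At the upper line Cxcl2 lay just inside with 7.58, and Ccl20, Ccl6 and Ccl3 lay just outside with 7.18, 7.12 and 7.06. Signals of different probe sets depend on their probes, so the levels are set against the negative controls and not against each other.

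**Figure D1:**
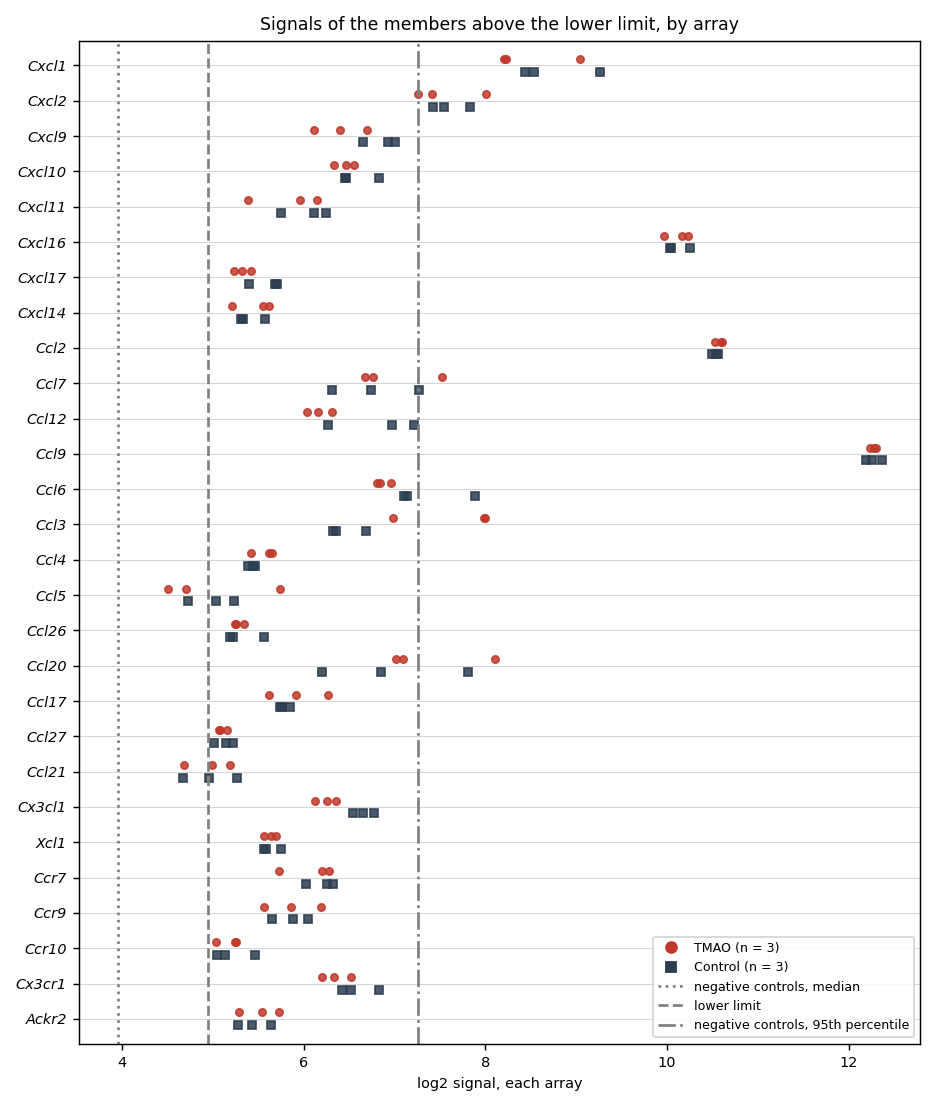
Log2 signal on each array (x axis) for the 28 genes above the limit, with TMAO as red circles over Control as dark squares, and vertical lines at the median of the negative controls (3.95), the limit (4.95) and their 95th percentile (7.26). Ccl9, Ccl2, Cxcl16, Cxcl1 and Cxcl2 lie at or to the right of the last line on every array, and the circles of Ccl3 lie to the right of its squares.

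None of the 52 genes passed an adjusted p of 0.05 in limma, a threshold that 4 of the 15037 genes (0.0266%) passed. At an unadjusted p under 0.05, 2 of the 52 were higher with TMAO, against 3.01% of all genes, and 6 were lower, against 2.48% of all genes. Among the 28 above the limit, 1 was higher, against 3.3% of all genes above the limit, and 4 were lower, against 2.55%. Every TMAO array lay above every Control array for 3 of the 52 genes, against 5.51% of all genes, and below for 5, against 5.33%. Of the 28 above the limit this held for 1 gene on the higher side, against 6.17% of such genes, and for 2 on the lower side, against 5.62%. The median difference was -0.01 over the 52 genes and 0.00 over all genes. It was -0.02 over the 28 above the limit, with a range of -0.65 to 1.20, and 18 of the 28 differences (64.3%) were negative, against 49.6% of all genes above the limit. The count of 8 genes at an unadjusted p under 0.05 was 5 when TMAO replicate 1 or TMAO replicate 3 was left out, and 4 when Control replicate 2 was.

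**Figure D2:**
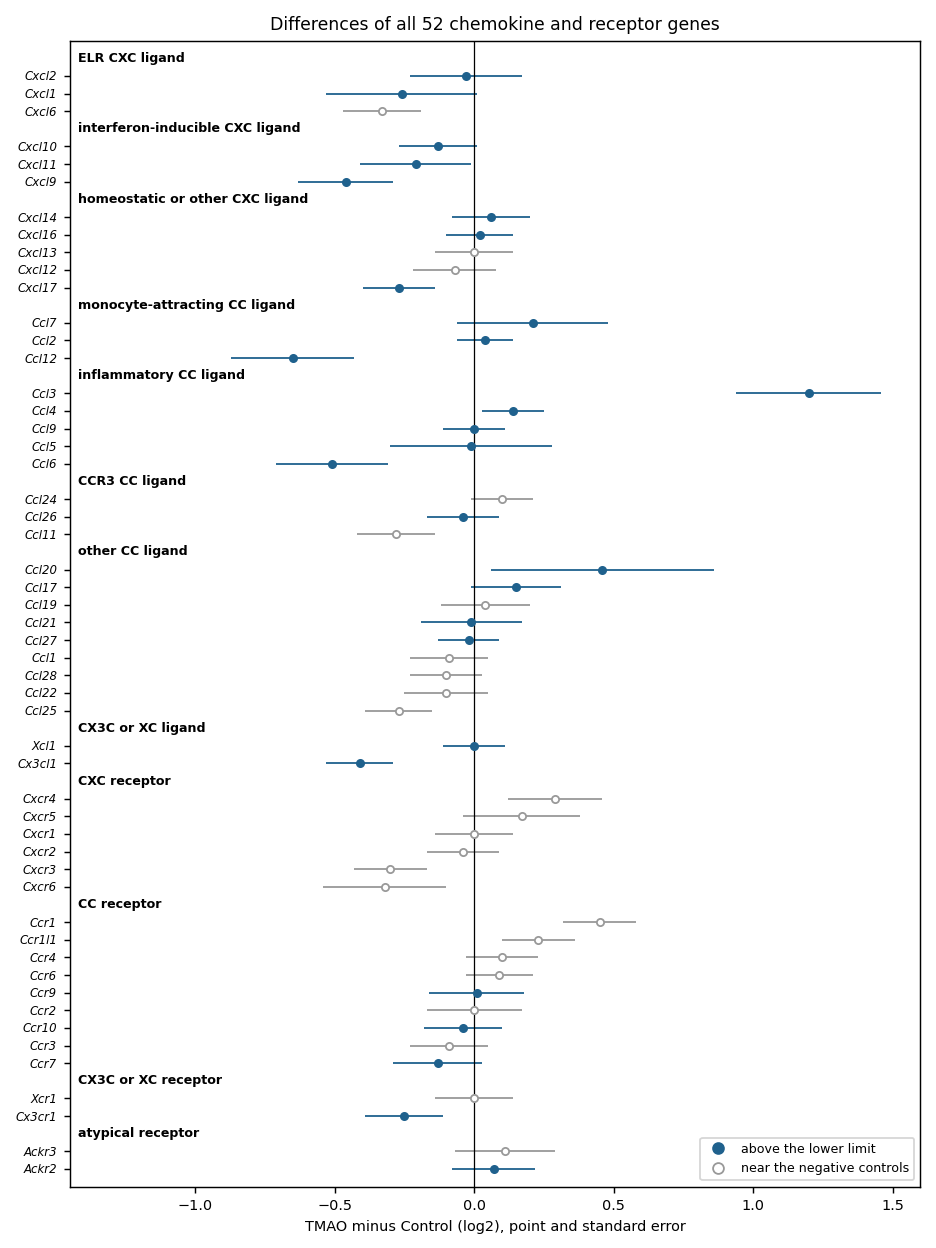
TMAO minus Control (log2, x axis) with its standard error for all 52 genes, grouped by role, with filled points for genes above the limit and open points for genes near the negative controls. Ccl3 stands apart on the right at 1.20, and Ccl12, Ccl6, Cxcl9 and Cx3cl1 lie to the left between -0.65 and -0.41.

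Among the inflammatory CC ligands, Ccl3 carried the largest difference of all 52 genes. Ccl3 (probe set TC1000003430.rn.2) encodes macrophage inflammatory protein 1 alpha, which draws monocytes, macrophages and neutrophils. Its signals were 6.98, 8.0 and 7.99 in the TMAO arrays, against 6.35, 6.69 and 6.32 in the Control arrays. Each TMAO array was above each Control array, and TMAO replicate 1 was about 1 log2 unit below the other TMAO arrays. The difference was 1.20 ± 0.26 (SE, n = 3 each), a fold of 2.3, with a 95% interval of 0.62 to 1.78. Its unadjusted p of 0.00113 ranked 46 among the 15037 genes and its limma adjusted p was 0.371. Without TMAO replicate 1 the difference was 1.54 and the limma adjusted p was 0.0413.

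Ccl6 (TC1000003428.rn.2), a CC ligand known from rodents that acts through Ccr1 in the mouse, differed the other way. It measured 6.81, 6.96 and 6.84 with TMAO, against 7.14, 7.89 and 7.10 in Control. The groups did not overlap, and Control replicate 2 was the highest array. The difference was -0.51 ± 0.20, with an unadjusted p of 0.0313 and a limma adjusted p of 0.909, and it was -0.25 without Control replicate 2. Ccl4 encodes macrophage inflammatory protein 1 beta, often released together with Ccl3. Its signals were 5.62, 5.65 and 5.42 with TMAO, against 5.44, 5.46 and 5.39 in Control. The groups overlapped and the difference was 0.14 ± 0.11 (95% interval -0.12 to 0.39; limma adjusted p = 0.963). Ccl9, which in the mouse also acts through Ccr1, was far above the negative controls. With a mean of 12.28 it lay near the highest mean of any gene, 12.61. Whether signals that high can still show a difference was not tested for Ccl9. Its signals were 12.30, 12.28 and 12.24 with TMAO, against 12.37, 12.26 and 12.19 in Control, and the 95% interval of its difference was -0.24 to 0.24. Ccl5, or RANTES, a ligand of Ccr1 and Ccr3, differed by -0.01 ± 0.29 at a mean of 4.99. It was above the limit on 1 TMAO array and on 2 Control arrays.

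Among the CC ligands that attract monocytes through Ccr2, Ccl12 had the lowest difference of the 52 genes, and that of Ccl2 was 0.04. Ccl12 (TC1000001229.rn.2) is a Ccr2 ligand in the mouse. Its signals were 6.16, 6.31 and 6.04 with TMAO, against 6.97, 7.21 and 6.27 in Control. TMAO replicate 2 lay above Control replicate 3, so the groups overlapped. The difference was -0.65 ± 0.22 (95% interval -1.14 to -0.16; unadjusted p = 0.0153; limma adjusted p = 0.856). Ccl2, or monocyte chemoattractant protein 1, the main ligand of Ccr2, measured 10.61, 10.59 and 10.53 with TMAO and 10.50, 10.54 and 10.56 in Control. The groups overlapped, and the difference of 0.04 ± 0.10 had a 95% interval of -0.19 to 0.28. Ccl7, another Ccr2 ligand, had 6.76, 7.52 and 6.67 with TMAO, against 6.74, 7.27 and 6.31 in Control. Its difference of 0.21 ± 0.27 was smaller than the spread within either group, with SDs of 0.47 and 0.48.

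Macrophage marker signals were mostly lower with TMAO, without passing the adjusted test. Of 20 markers listed, 19 were measured and 11 were above the limit. The mean signal over the 19 was 5.08 to 5.26 on the TMAO arrays and 5.26 to 5.50 on the Control arrays. 16 of the 19 (84.2%) had a negative difference, against 51% of all genes, with a median of -0.14, beside 0.00 over all genes. 3 were lower at an unadjusted p under 0.05, against 2.48% of all genes, and 1 was higher, against 3.01%. In limma 0 passed the adjusted threshold. Negative differences were also in the majority in the lists of endothelial (81.8%), hepatocyte (71.4%), stellate and fibroblast (69.2%), and T and NK cell markers (63.6%). They were in the minority for neutrophil (33.3%), B and dendritic cell (33.3%) and bile duct markers (28.6%). Cd163, a scavenger receptor of Kupffer cells, differed by -0.39 ± 0.13, and the mannose receptor Mrc1 by -0.43 ± 0.19. Vsig4, the other lower gene, differed by -0.37 ± 0.15 at a mean of 4.28, near the negative controls. Tyrobp, a signalling adaptor of myeloid cells, differed by 0.42 ± 0.18. Clec4f and Adgre1, which define rodent Kupffer cells and macrophages, averaged 3.54 and 3.25 and were below the median of the negative controls, as were Aif1 (3.51) and Itgam (3.11). The part of macrophage RNA in the values of Ccl3, Ccl6 and Ccl12 was not tested, and in such whole-culture RNA fewer cells of a type and less RNA per cell cannot be told apart.

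**Figure D3:**
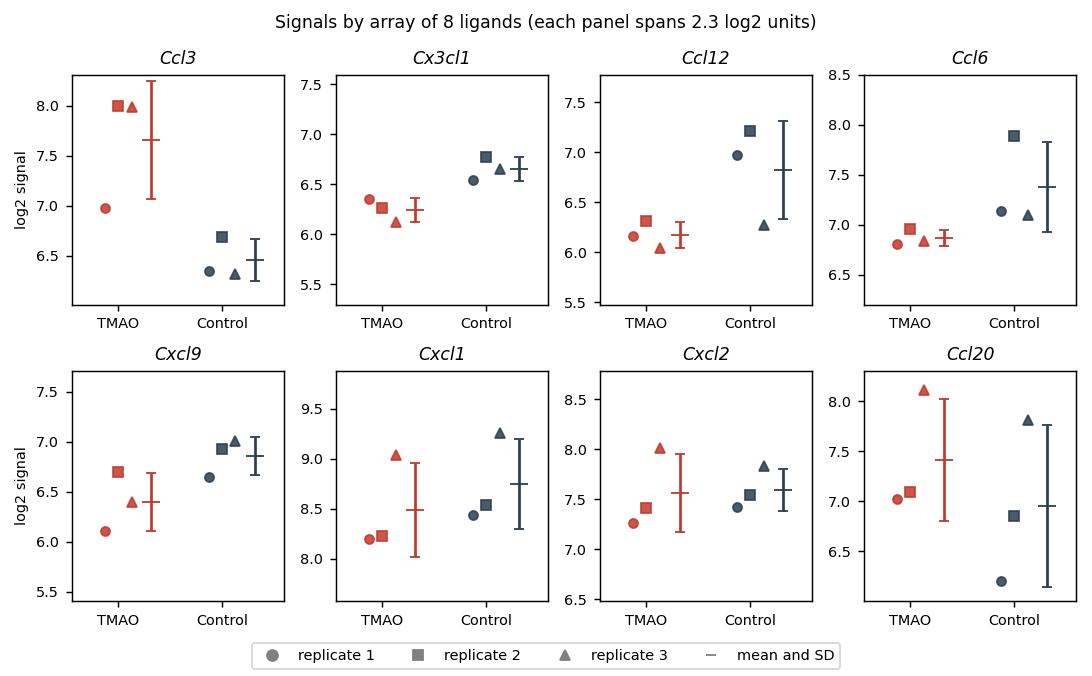
Log2 signal (y axis) on each array for 8 ligands, TMAO left of Control, with a symbol for each replicate number and the mean and SD beside the points. All Ccl3 points of TMAO lie above those of Control, and the triangles of replicate 3 are the highest of both groups for Cxcl1, Cxcl2 and Ccl20.

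Cxcl1 and Cxcl2, ELR CXC ligands that recruit neutrophils through Cxcr2, varied more between arrays of a group than between the groups. Cxcl1 had 8.20, 8.23 and 9.04 with TMAO, against 8.44, 8.54 and 9.26 in Control. The highest array was replicate 3 in both groups. Between arrays of equal replicate number, which nothing ties together, Cxcl1 differed by -0.25, -0.31 and -0.22. The difference of -0.26 ± 0.27 (95% interval -0.86 to 0.34) was within the SDs of 0.47 and 0.45, and it was 0.00 without Control replicate 3 and -0.53 without TMAO replicate 3. Cxcl2 showed the same high arrays, with 7.26, 7.41 and 8.01 with TMAO, against 7.42, 7.54 and 7.83 in Control, and a difference of -0.03 ± 0.20. Cxcl6 was near the negative controls on all 6 arrays, with 4.03, 3.97 and 3.95 with TMAO, against 4.03, 4.36 and 4.54 in Control, and the groups did not overlap before rounding. Its unadjusted p was 0.0471 at a difference of -0.33 ± 0.14, and its limma adjusted p was 0.909. Ccl20, the ligand of Ccr6 on T cells and dendritic cells, had its highest array in replicate 3 as well. Its signals were 7.02, 7.09 and 8.11 with TMAO, against 6.20, 6.85 and 7.81 in Control. The difference was 0.46 ± 0.40, and it was 0.08 without Control replicate 1 and 0.89 without Control replicate 3.

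Promoters of Cxcl1, Cxcl2 and Ccl20 are shown because they hold letters like those bound by NF-kB, the transcription factor that drives many inflammatory chemokines. RefSeq promoters of the rat assembly GRCr8, 250 bases before to 50 after the annotated start, were found for 42 of the 52 genes. Ccl2, Ccl3, Ccl4, Ccl5, Ccl11, Ccr4, Ccr7, Ccr9, Ccr10 and Cxcr5 had none there. They were not searched, so nothing is known here of motifs in their promoters. Each is written 5′ to 3′ in the direction of the gene, with matches in capitals. The Cxcl1 promoter lies at chr14:17479272-17479571 on the minus strand, Cxcl2 at chr14:17467206-17467505 on the minus strand and Ccl20 at chr9:91836909-91837208 on the plus strand.
Cxcl1: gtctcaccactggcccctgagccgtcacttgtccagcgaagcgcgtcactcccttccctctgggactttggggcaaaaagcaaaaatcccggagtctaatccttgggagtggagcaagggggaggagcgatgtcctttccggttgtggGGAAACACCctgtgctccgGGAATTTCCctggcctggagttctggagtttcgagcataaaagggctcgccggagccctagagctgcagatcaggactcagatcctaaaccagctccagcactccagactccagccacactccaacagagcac
Cxcl2: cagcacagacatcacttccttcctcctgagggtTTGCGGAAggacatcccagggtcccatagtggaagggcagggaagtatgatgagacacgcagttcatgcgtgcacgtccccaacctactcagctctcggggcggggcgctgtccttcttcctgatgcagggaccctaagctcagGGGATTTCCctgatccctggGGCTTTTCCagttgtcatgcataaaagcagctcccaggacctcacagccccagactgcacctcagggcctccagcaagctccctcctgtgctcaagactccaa
Ccl20: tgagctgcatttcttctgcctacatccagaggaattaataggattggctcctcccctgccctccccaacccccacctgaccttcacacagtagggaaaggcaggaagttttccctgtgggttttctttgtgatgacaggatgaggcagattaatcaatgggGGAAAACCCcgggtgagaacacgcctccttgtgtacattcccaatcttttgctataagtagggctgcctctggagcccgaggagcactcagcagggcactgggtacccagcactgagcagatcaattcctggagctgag

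The capitals mark GGNNTTTCC on either strand, which is like the NF-kB site, and in Cxcl2 also TTGCNNAA, which is like the C/EBP site. In Cxcl1 the matches begin 102 and 83 bases before the start, with GGAAACACC on the reverse strand and GGAATTTCC on the forward strand. In Cxcl2 the NF-kB-like matches begin 73 and 53 bases before the start and the C/EBP-like match begins 217 bases before it. The Ccl20 match begins 89 bases before the start. GGNNTTTCC was present in 9 of the 42 promoters (21.4%), those of Cxcl1, Cxcl2, Cxcl6, Cxcl9, Cxcl10, Cxcl11, Ccl9, Ccl20 and Ccr3, beside 6.05% of all 33469 rat promoters of the same length. Of these 9, the 8 ligands had differences of -0.46 to 0.46 with TMAO, and the receptor Ccr3 -0.09. TTGCNNAA was found in 7 of the 42 (16.7%) beside 10.6% of all promoters, and TGANTCA, like the AP-1 site, in 7 (16.7%) beside 7.33%. TGATGNAA, like a combined C/EBP and ATF site, was found in 2 (4.76%) beside 3.98%, and GAAANNGAA, like the interferon-stimulated response element, in 3 (7.14%) beside 9.71%. All 5 motifs were searched on both strands, and matches of different motifs may share letters. A match describes letters only.

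The interferon-inducible CXC ligands, which recruit activated T cells and NK cells through Cxcr3, all had negative differences, and none passed the adjusted test. Cxcl9 (TC1400000253.rn.2) had 6.11, 6.70 and 6.40 with TMAO, against 6.65, 6.93 and 7.01 in Control. TMAO replicate 2 was slightly above Control replicate 1, so the groups overlapped. The difference was -0.46 ± 0.17 (95% interval -0.84 to -0.08; unadjusted p = 0.0222; limma adjusted p = 0.876). Cxcl10 differed by -0.13 ± 0.14 and Cxcl11 by -0.21 ± 0.20, both with intervals that include 0. Cxcl10 was 0.00 without Control replicate 3, and Cxcl11 was 0.01 without TMAO replicate 1. Cxcr3 itself was near the negative controls, with a mean of 4.50 and a difference of -0.30 ± 0.13. Neither group had an array of Cxcr3 above the limit. The Cxcl9 promoter (chr14:16006916-16007215, plus strand, GRCr8) is shown because it holds 2 copies of GGNNTTTCC, in capitals, which begin 94 and 4 bases before the start.
Cxcl9: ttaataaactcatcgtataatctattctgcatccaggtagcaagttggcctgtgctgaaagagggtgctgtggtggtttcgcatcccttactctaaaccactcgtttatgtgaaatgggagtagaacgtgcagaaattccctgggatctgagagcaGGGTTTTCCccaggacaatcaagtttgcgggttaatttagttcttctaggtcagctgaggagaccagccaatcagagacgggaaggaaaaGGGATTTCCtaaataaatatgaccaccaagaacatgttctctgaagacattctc

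Cx3cl1 was the ligand with the lowest unadjusted p on the lower side. It encodes fractalkine, a membrane-anchored chemokine that both tethers and attracts cells bearing Cx3cr1, such as monocytes and NK cells. Cx3cl1 (TC1900000992.rn.2) had 6.35, 6.26 and 6.12 with TMAO, against 6.54, 6.77 and 6.65 in Control. All TMAO arrays were below all Control arrays. The difference was -0.41 ± 0.12, a fold of 1.33, with a 95% interval of -0.68 to -0.14, an unadjusted p of 0.00725 and a limma adjusted p of 0.728. Its receptor Cx3cr1 had 6.20, 6.52 and 6.33 with TMAO, against 6.52, 6.42 and 6.83 in Control. Those groups overlapped, and the difference of -0.25 ± 0.14 (unadjusted p = 0.122; limma adjusted p = 0.958) was -0.12 without Control replicate 3. Xcl1, or lymphotactin, which attracts cross-presenting dendritic cells, differed by 0.00 ± 0.11. The Cx3cl1 promoter (chr19:10242771-10243070, minus strand, GRCr8) is shown for comparison, as it holds none of the 5 motifs in this window and so has no capitals.
Cx3cl1: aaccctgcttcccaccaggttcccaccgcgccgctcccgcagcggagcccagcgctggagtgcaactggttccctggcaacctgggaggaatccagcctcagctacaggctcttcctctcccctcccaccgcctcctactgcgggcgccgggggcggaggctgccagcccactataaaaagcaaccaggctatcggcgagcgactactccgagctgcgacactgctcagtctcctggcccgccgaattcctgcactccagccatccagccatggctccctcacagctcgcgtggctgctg

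The other ligands above the limit had 95% intervals that include 0. Cxcl16, a membrane-anchored ligand of Cxcr6 that holds T cells and NKT cells in the liver, had 9.97, 10.17 and 10.23 with TMAO, against 10.03, 10.25 and 10.04 in Control. The groups overlapped and the difference was 0.02 ± 0.12 (95% interval -0.26 to 0.30). Cxcl17, a chemokine of mucosal tissues, had 5.32, 5.42 and 5.23 with TMAO, against 5.40, 5.70 and 5.68 in Control. TMAO replicate 2 lay above Control replicate 1, and the difference was -0.27 ± 0.13 (unadjusted p = 0.0609; limma adjusted p = 0.938). Cxcl14 differed by 0.06 ± 0.14, and Ccl17, a ligand of Ccr4 on T helper cells, by 0.15 ± 0.16. Ccl26, an eotaxin acting through Ccr3, differed by -0.04 ± 0.13. Ccl27, a ligand of Ccr10, and Ccl21, a ligand of Ccr7 that guides cells into lymphoid tissue, differed by -0.02 ± 0.11 and -0.01 ± 0.18. Ccl21 was above the limit on 2 TMAO arrays and 2 Control arrays. 10 ligands were near the negative controls: Cxcl6, Cxcl12, Cxcl13, Ccl1, Ccl11, Ccl19, Ccl22, Ccl24, Ccl25 and Ccl28. Of these, Ccl25, the ligand of Ccr9, had groups that did not overlap, with 4.38, 4.59 and 4.59 with TMAO, against 4.80, 4.65 and 4.94 in Control.

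Receptor signals were mostly at background. The 5 receptors above the limit were Ccr7, Ccr9, Ccr10, Cx3cr1 and the atypical receptor Ackr2, a scavenger of inflammatory CC ligands. Their means over all arrays ran between 5.19 and 6.47, and none reached 7.26. These 5 of 19 receptors stand beside 27.9% of the negative controls that reach the same limit. By this limit the receptors as a group were not told apart from background. Ccr7 differed by -0.13 ± 0.16, Ccr9 by 0.01 ± 0.17, Ccr10 by -0.04 ± 0.14 and Ackr2 by 0.07 ± 0.15. None of the 6 CXC receptors was above the limit, and of the 9 CC receptors 3 were. Ccr1, a receptor of Ccl3 on myeloid cells, had 3.88, 4.14 and 4.04 with TMAO, against 3.74, 3.41 and 3.56 in Control. Every TMAO array was above every Control array, while no array reached the limit of 4.95. The difference was 0.45 ± 0.13 (unadjusted p = 0.00665; limma adjusted p = 0.72). Ccr1l1, a Ccr1-like gene, also had groups that did not overlap, with 3.40, 3.09 and 3.07 with TMAO, against 2.91, 2.97 and 3.0 in Control. Ccr3, which lies between Ccr1 and Ccr1l1 on chromosome 8, had groups that overlapped and differed by -0.09 ± 0.14. Signals this close to the negative controls leave the size of these differences uncertain.

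In a list of ligand and receptor pairs made for this report, few pairs had both genes above the limit. The list was not complete, and the counts depend on it. It left out Ccl12 with Ccr2, Ccl6 and Ccl9 with Ccr1, and Ccl26 with Ccr3. Ackr2 was paired with Ccl2 and Ccl5 only. In 5 of 30 measured pairs both genes were above it: Cx3cl1 with Cx3cr1, Ccl21 with Ccr7, Ccl27 with Ccr10, and Ccl2 and Ccl5 with Ackr2. In 15 pairs only the ligand was, in 3 only the receptor, and in 7 neither. The Cx3cl1 pair had differences of -0.41 for the ligand and -0.25 for the receptor. In the pair of Ccl3 and Ccr1 the ligand was above the limit and the receptor was not.

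**Figure D4:**
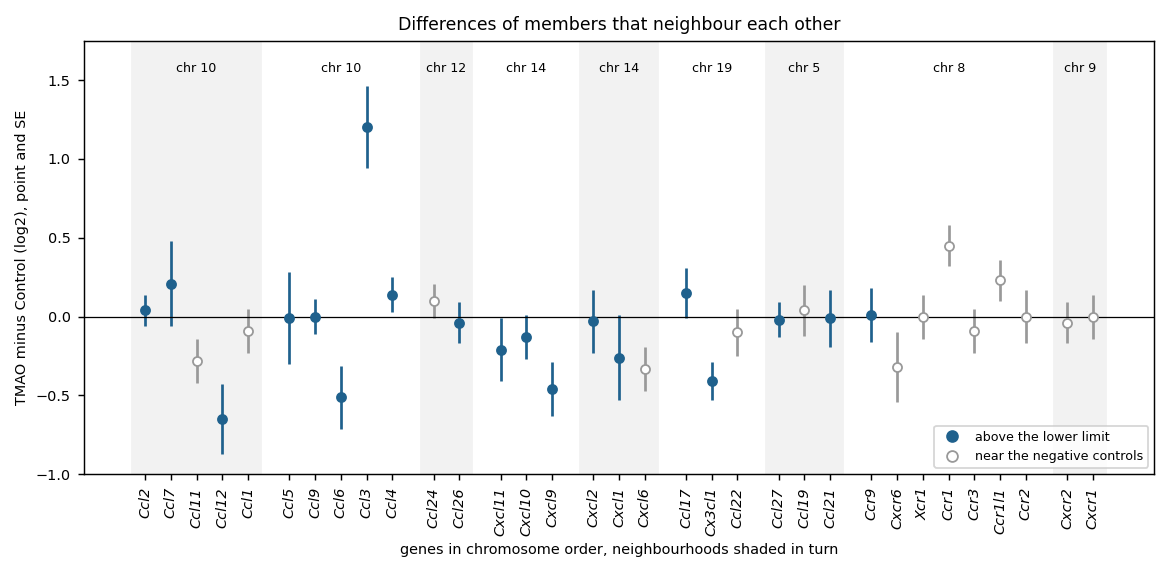
TMAO minus Control (log2, y axis) with SE for the 33 genes that sit in 9 neighbourhoods, in gene order and without a distance scale, with open points for genes near the negative controls. Beside Ccl3 at 1.20 on chromosome 10, Ccl5, Ccl9 and Ccl4 lie between -0.01 and 0.14 and Ccl6 at -0.51.

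Chemokine genes lie in clusters, and the differences of neighbours ran in both directions. 33 of the 52 sit in 9 neighbourhoods, taken as genes at most 5 steps apart in GRCr8 gene order. One on chromosome 10 holds Ccl5, Ccl9, Ccl6, Ccl3 and Ccl4 in that order, with differences of -0.01, 0.00, -0.51, 1.20 and 0.14. Another on chromosome 10 holds Ccl2, Ccl7, Ccl11, Ccl12 and Ccl1, with 0.04, 0.21, -0.28, -0.65 and -0.09. The Ccl3 difference exceeded that of Ccl4 by 1.06, that of Ccl9 by 1.20 and that of Ccl6 by 1.71, and the array values of these contrasts did not overlap between TMAO and Control. An exact two-sided permutation test gave p = 0.1 for each of these 3 contrasts, the smallest p that 3 against 3 allows, and 0.133 after adjustment over 4 pairs. Against Ccl5 the contrast was 1.21 with an exact p of 0.3. These pairs were chosen after the values were seen. Ccl3 was picked for its large difference, and its own TMAO and Control arrays did not overlap. The contrasts carry that separation over and are not independent of it. On chromosome 14, Cxcl11, Cxcl10 and Cxcl9 had -0.21, -0.13 and -0.46. On chromosome 8 the 7 receptors from Ccr9 to Ccr2 ran between -0.32 and 0.45, with 6 of them near the negative controls.

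None of the genes upstream of chemokine induction passed the adjusted test. The 21 genes measured here were inflammatory cytokines, cytokine receptors, Toll-like receptors, Cd14 and Ly96. At an unadjusted p under 0.05, 3 of the 21 were higher, against 3.01% of all genes, and 0 were lower, against 2.48%. These 3 were Il1a, Il1b and Il6st. Il1b, an inducer of chemokines through NF-kB, had 5.12, 5.55 and 5.59 with TMAO, against 4.65, 5.14 and 5.03 in Control, a difference of 0.48 ± 0.17 (limma adjusted p = 0.859). Il6st, the shared receptor chain of the interleukin 6 family, differed by 0.38 ± 0.15 and Tlr3 by -0.28 ± 0.16. Il1a had 4.27, 4.96 and 5.41 with TMAO, against 3.23, 3.80 and 4.10 in Control. Its difference of 1.17 ± 0.29 (unadjusted p = 0.003; limma adjusted p = 0.573) stood at a mean of 4.30, near the negative controls. Tnf and Il6 averaged 4.91 and 3.81, below the limit.

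Components of the NF-kB pathway gave no call after adjustment. All 22 measured components were above the limit, their median difference was 0.00, and 1 was higher at an unadjusted p under 0.05, against 3.01% of all genes, and 0 were lower, against 2.48%. The higher gene was the adaptor Traf2, at 0.39 ± 0.16, followed by the kinase Chuk at 0.29 ± 0.15 and the inhibitor of apoptosis Birc3 at 0.28 ± 0.15. Of 19 other known NF-kB targets, 13 were above the limit and 6 were near the negative controls. At an unadjusted p under 0.05 in limma 0 were higher, against 3.01% of all genes, and 0 were lower, against 2.48%. A list this short cannot tell 0 from these shares. The median difference of the list was 0.04. Csf3, Lif and Csf1 had the lowest p among those above the limit, with differences of -0.16 ± 0.13, 0.21 ± 0.21 and -0.11 ± 0.12.

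Of 24 genes that carry the signal of chemokine receptors, 1 was higher at an unadjusted p under 0.05, against 3.01% of all genes, and 2 were lower, against 2.48%. The higher gene was the phospholipase Plcb2, at 0.62 ± 0.22, and the G protein subunit Gng2, at -0.37 ± 0.12, was lower, both at means near the negative controls. The other lower gene was Arrb2, the arrestin that internalises activated receptors, at -0.36 ± 0.13. Not past that p were the receptor kinase Grk5, at 0.26 ± 0.14, and Rgs2, which shortens G protein signals, at 0.23 ± 0.13. Of 16 genes for chemokine handling and other attractants, Hs6st1, which sulfates the heparan chains that hold chemokines, differed by -0.37 ± 0.12, the complement receptor C3ar1 by -0.33 ± 0.20 and Ndst1, another heparan sulfate enzyme, by -0.18 ± 0.11. 7 chemokine or chemokine-like genes outside the symbol rule differed by -0.12 to 0.10. Among them, Ppbp differed by -0.03 ± 0.11, Cmtm7 by -0.06 ± 0.18 and Cmtm3 by -0.03 ± 0.13.

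**Figure D5:**
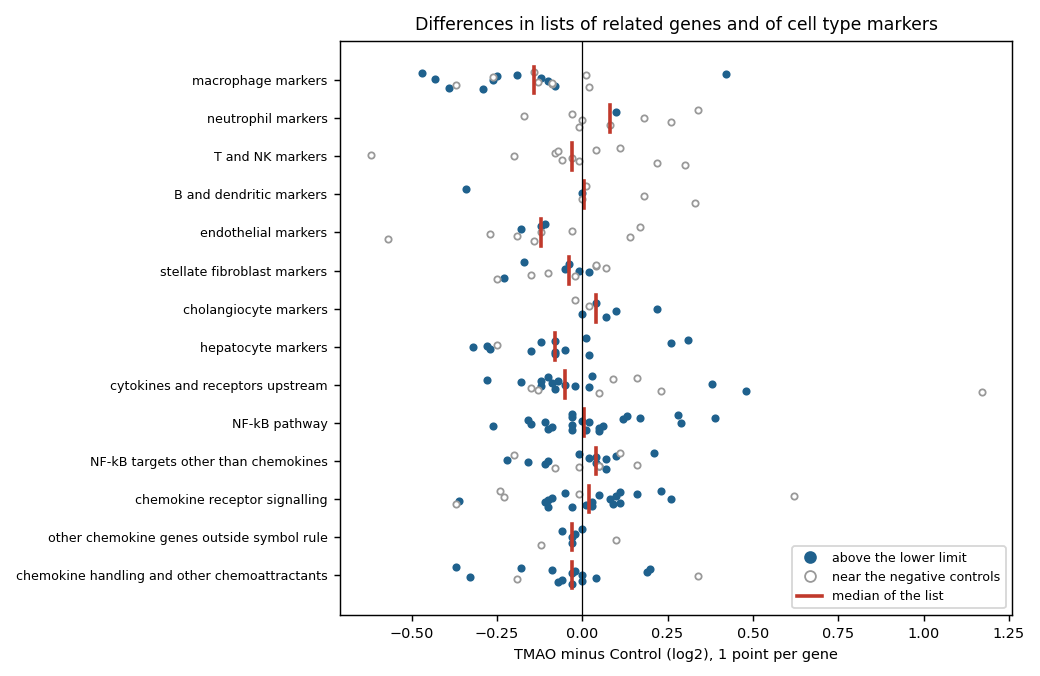
TMAO minus Control (log2, x axis) for every measured gene of the 14 lists, 1 point per gene, filled above the limit and open near the negative controls, with a red bar at the median of each list. Medians lie between -0.14 for macrophage markers and 0.08 for neutrophil markers, and the open point farthest right, at 1.17, is Il1a.

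Most markers of neutrophils, lymphocytes and dendritic cells were near the negative controls. None of 11 T and NK cell markers was above the limit, and their mean was 3.83 to 4.0 on the TMAO arrays and 3.89 to 4.08 on the Control arrays. Among them Lck, a kinase of the T cell receptor, had 4.42, 4.48 and 4.18 with TMAO, against 4.94, 4.94 and 5.06 in Control. Its difference of -0.62 ± 0.12 (unadjusted p = 5.76e-04; limma adjusted p = 0.278) had a lower unadjusted p than any chemokine gene. Cd3d, a chain of that receptor, differed by 0.30 ± 0.13, also without overlap. Of 9 neutrophil markers only Mmp9 was above it, at 0.10 ± 0.14, and the list averaged 3.86 to 4.11 with TMAO and 3.89 to 3.95 in Control. S100a8 and S100a9, which define neutrophils, averaged 2.98 and 4.18, and Fpr1, a receptor for bacterial peptides, differed by 0.34 ± 0.11 without overlap at a mean of 3.32. Of 6 B and dendritic cell markers RT1-Da and Cd74 were above the limit. RT1-Da, a class II histocompatibility gene, differed by -0.34 ± 0.11, with no overlap between the groups, and Cd74 by 0.00 ± 0.13. Cd79b, a chain of the B cell receptor, differed by 0.33 ± 0.10 without overlap, at a mean of 4.22. The list averaged 4.32 to 4.42 with TMAO and 4.29 to 4.42 in Control.

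Markers of the other liver cells were present in part. Of 11 endothelial markers 9 had a negative difference and 3 were above the limit, Lyve1 at -0.18 ± 0.12, Eng at -0.12 ± 0.22 and Esam at -0.11 ± 0.19, and the list averaged 4.54 to 4.59 with TMAO and 4.57 to 4.78 in Control. Endothelial cells are a source of Cx3cl1, and the part of these cells in its difference was not tested. Pecam1, Cdh5, Kdr and Stab2, which define endothelium, were near the negative controls. Of the 11 endothelial markers only Cdh5 had an unadjusted p under 0.05. It differed by -0.57 ± 0.24 at a mean of 3.98, with groups that overlapped (unadjusted p = 0.0417; limma adjusted p = 0.909). 6 of 13 stellate cell and fibroblast markers were above the limit, with means over the list of 5.33 to 5.60 with TMAO and 5.54 to 5.60 in Control. Acta2 differed by -0.23 ± 0.14, Vim by -0.17 ± 0.22 and Col3a1 by -0.05 ± 0.15. 5 of 7 bile duct markers were above the limit, and Spp1, Epcam and Krt7 differed by 0.22 ± 0.33, 0.10 ± 0.19 and 0.07 ± 0.14, with list means of 4.78 to 5.25 with TMAO and 4.87 to 5.09 in Control. The hepatocyte markers averaged 8.91 to 9.12 with TMAO and 9.01 to 9.19 in Control, and among them Fga differed by -0.32 ± 0.13, Fgb by -0.27 ± 0.13 and Tat by 0.31 ± 0.16.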

How the data were processed

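RNA of 6 samples, 3 TMAO and 3 Control, was measured on Affymetrix rat arrays, 1 array per sample, with groups taken from the sample titles. The authors deposited log2 signals, 1 per probe set and array, in the series' value table. limma appears in the submitters' processing notes without a version or a role. How background, normalization and probe summary were handled is not given in the sources used here. These deposited log2 values were used unchanged. A second deposited table has 6 columns that no label ties to a sample, and they were not used.

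Of 24871 probe sets, 1683 controls were left out, and 15049 of the other 23188 had 1 gene symbol in the platform annotation. The probe set with the highest mean stood for a gene, which gave 15037 genes. Symbols were checked against RefSeq (GRCr8) by gene identifier, and all 52 members matched with 0 changes. limma (version 3.58.1, in R 4.3.3) fitted the group as its only term with lmFit and eBayes. Tests were two-sided, with Benjamini-Hochberg adjustment over all 15037 genes and a threshold of 0.05. The procedure was also run on simulated data with independent noise. What was required there was a low share of false calls and recovery of a change larger than that of any member. That run does not tell how often differences of the sizes seen here would be found.

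The members, lists, pairs and motifs were chosen with earlier results of these data known. Values on every array are given for members above the limit with an unadjusted p under 0.05 or without overlap, and for the 8 members above the limit with the smallest p. Further members' array values were added after they were seen. Other members are named with their difference or counted. Of each list, up to 3 genes above the limit with the smallest p are named. Genes of the lists outside this rule, such as Il1a, Alb and absent markers, were named after their values were seen. Precision is limited by the number of arrays. Alternatives covered normalization, filters on dim genes, the spread estimate, array weights, the replicate block and leaving out each array.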

Additional observations from a re-analysis of the deposited data

How the results depend on the processing

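No member passed the adjusted threshold in limma under any alternative, except Ccl3 without TMAO replicate 1, so the count ran from 0 to 1 when an array was left out. Its adjusted p ran from 0.0413 to 0.932 over the alternatives and was 0.0971 with a trended, robust spread. The count of 8 members at an unadjusted p under 0.05 was 5 over genes at or above the median gene and 5 over genes at least 1 log2 unit above the negative controls, where fewer genes are tested, and 4 to 9 without single arrays. The count of 8 members without overlap was 3 and 3 under these filters, and 9 to 16 without single arrays, where fewer arrays have to be separated. The median over members above the limit was -0.13 over the 16 members at or above the median gene. The 28 members above the limit were 5 above the 95th percentile of the negative controls and 15 at 2 log2 units above their median. 12 of the 28 members kept their sign in every alternative, among them Ccl3, Cx3cl1, Ccl12, Cxcl9 and Ccl6. Array weights turned the sign of Ccl21 (0.10), Cxcl16 (-0.06), Ccl5 (0.17), Ccl26 (0.03), Ccl9 (0.00) and Ccr10 (0.00). Quantile normalization turned Ccl5 (0.01), Xcl1 (0.01) and Ccl9 (0.00), and median centring turned Ccl9 (0.01) and Xcl1 (0.01). The cause was not tested. Without single arrays the sign turned for 16 members. Their ranges were -0.08 to 0.02 for Ccl27, -0.16 to 0.14 for Ccl21, -0.14 to 0.17 for Ccr9, -0.03 to 0.19 for Ackr2, -0.06 to 0.46 for Ccl7, -0.03 to 0.09 for Cxcl16, -0.39 to 0.22 for Ccl5 and -0.04 to 0.05 for Ccl9. They were -0.24 to 0.04 for Ccr7, -0.12 to 0.09 for Ccr10, -0.11 to 0.07 for Ccl26, -0.04 to 0.06 for Xcl1, -0.36 to 0.01 for Cxcl11, -0.26 to 0.11 for Cxcl2, -0.02 to 0.18 for Cxcl14 and -0.02 to 0.31 for Ccl17. Deviations of arrays with equal numbers correlated at 0.13, 0.10 and -0.01, and those of arrays with unequal numbers at -0.13 to 0.03. These correlations do not settle whether equal numbers pair the samples. Nothing in the sources used here says so, and the main fit took them as unpaired. With the replicate block, 0 members passed the adjusted threshold, 8 had an unadjusted p under 0.05 and the lowest adjusted p was 0.378, for Ccl3. These 8 included Ccl20 (unadjusted p = 0.0193 with the block and 0.277 without it; adjusted p = 0.859 with it) and no longer Cxcl6. The unadjusted limma p of Cxcl1 was 0.0511 with the block and 0.359 without it. That of Ccl12 was 0.00583 with it and 0.0153 without it, and that of Cxcl9 was 0.00939 and 0.0222. For Cx3cl1 it went the other way, with 0.0147 with the block and 0.00725 without it. Cxcl10 was -0.02 with array weights. Signals near the negative controls limit what can be read for 24 members.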

Other observations

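Some chemokines were highest on the array of the same replicate number in both groups, although nothing in the sources used here ties equal numbers together. In replicate 2 this held for 8 of the 28 members above the limit (28.6%), beside 8.57% of all genes above the limit. These 8 were Ccl3, Ccl4, Ccl6, Ccl7, Ccl12, Cxcl17, Xcl1 and Ackr2. In replicate 3 it held for 5 members (17.9%), beside 15.3% of genes, namely Cxcl1, Cxcl2, Cxcl11, Ccl20 and Ccr10. In replicate 1 it held for 4 members (14.3%), beside 13.7%. Replicate 3 minus the mean of the other replicates was 0.82 in TMAO and 0.77 in Control for Cxcl1. It was 0.67 in TMAO and 0.35 in Control for Cxcl2, and 1.05 in TMAO and 1.28 in Control for Ccl20. These counts were made after the values were seen and were not tested.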
